A study of Mus musculus with 5 samples.

Results

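The genes described here encode the chains of major histocompatibility complex (MHC) class I molecules in mouse bone marrow after irradiation. They are 7 heavy chain genes and B2m, the gene of the light chain beta-2-microglobulin. The genes were chosen by name, with earlier results of these data known. All array probes annotated to them were taken, which gave 8 of 19057 genes and 20 of 34885 probes with 1 gene symbol. H2-K1 and H2-D1 encode classical heavy chains, and H2-M3, H2-T10, H2-T22, H2-T23 and H2-Q6 are non-classical heavy chain genes. RNA of total bone marrow cells from both tibias of male BALB/c mice, an inbred strain, was hybridized to Illumina MouseWG-6 BeadChips. The age given for every group is 7 to 8 weeks, which in the methods is the age at purchase and not at harvest. Mice received a single total body dose of 4 Gy of gamma-rays and were studied at 3, 7, 11 or 21 days after irradiation (DAI), while sham-irradiated mice stood for 0 DAI. There was 1 array for each of these 5 groups, so no value has a replicate error and no test between times was possible. The methods do not settle whether the RNA on an array came from 1 mouse or from a pool of mice.

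A class I molecule consists of a heavy chain, beta-2-microglobulin and a short peptide. The proteasome cuts the peptide from a protein of the cell, the TAP transporter carries it into the endoplasmic reticulum, and chaperones load it into the heavy chain. Classical molecules are found on nearly all nucleated cells and show peptides to CD8 T cells, non-classical ones have narrower tasks, and natural killer (NK) cells read both kinds. Interferons raise the transcription of many of these genes, through factors of the IRF and STAT families and the transactivator NLRC5.

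Signals are intensities on a linear scale, background-subtracted and scaled by the authors to the same mean on each array. The median signal was between 10.3 and 11.9 on the 5 arrays, and between 29.8% and 30.5% of the probes were above 64. Signals under 64 were raised to 64 before a ratio was formed, and a ratio with 1 of its 2 signals under 64 is a bound. A gene was called higher or lower at a log2 ratio of 1 or more in size, which is 2-fold, and the brightest probe stood for each gene. All 4 ratios of a gene share the sham array. The number of arrays limits the precision, and the ordering of close values has no known error.

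The promoters of 7 of the 8 genes are shown first, since they are the regulatory sequences of the genes whose levels are described. Of these 7 genes, 5 were called higher at 11 DAI, against 6.0% of 8304 genes, and H2-D1 and B2m were not. The sequences are those of RefSeq, build GRCm38.p6, which is the C57BL/6J strain and not BALB/c, and that of H2-T10 was not analysed here. Each stretch is read 5′ to 3′ in the direction of the gene and ends before the start site. Capitals mark 4 kinds of motif, which are the interferon response element, the CCAAT box that the factor NF-Y binds, the TGACG core of a cyclic AMP response element, and a kappa B-like motif.
H2-K1, chr17:34000349-34000462, minus strand: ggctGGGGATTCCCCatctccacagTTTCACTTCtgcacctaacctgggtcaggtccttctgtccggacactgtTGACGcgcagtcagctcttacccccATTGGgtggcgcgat
H2-D1, chr17:35262919-35263055, plus strand: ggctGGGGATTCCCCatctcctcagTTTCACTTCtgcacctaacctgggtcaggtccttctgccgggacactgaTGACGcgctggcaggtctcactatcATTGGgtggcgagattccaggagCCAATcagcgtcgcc
H2-Q6, chr17:35424673-35424809, plus strand: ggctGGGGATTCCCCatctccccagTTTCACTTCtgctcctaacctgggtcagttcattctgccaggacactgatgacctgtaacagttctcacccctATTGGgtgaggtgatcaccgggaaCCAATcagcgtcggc
H2-M3, chr17:37270105-37270227, plus strand: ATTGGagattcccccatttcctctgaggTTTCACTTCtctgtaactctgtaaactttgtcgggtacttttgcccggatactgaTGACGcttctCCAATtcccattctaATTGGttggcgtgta
H2-T22, chr17:36042750-36042958, minus strand: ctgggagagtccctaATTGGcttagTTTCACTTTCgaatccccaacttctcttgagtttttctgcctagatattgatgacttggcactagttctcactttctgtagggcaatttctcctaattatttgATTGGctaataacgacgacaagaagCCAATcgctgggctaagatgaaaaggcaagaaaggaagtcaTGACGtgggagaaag
H2-T23, chr17:36032739-36032850, minus strand: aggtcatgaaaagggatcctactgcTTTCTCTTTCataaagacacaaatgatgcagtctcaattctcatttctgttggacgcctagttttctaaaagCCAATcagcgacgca
B2m, chr2:122147523-122147648, plus strand: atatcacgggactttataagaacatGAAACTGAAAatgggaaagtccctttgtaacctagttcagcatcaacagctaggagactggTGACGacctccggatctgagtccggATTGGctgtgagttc

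The motifs were searched on both strands in windows from 250 bases before to 50 bases after the start of 27025 genes. Where a gene had several listed starts, the first in the list was used. GAAANNGAAA, read as TTTCNNTTTC on the other strand, is a core of the interferon response element and was found in B2m, H2-T23 and H2-T22, as in 3.49% of all windows. A form that is 1 base shorter, GAANNGAAA with its reverse TTTCNNTTC, was added after the sequences had been seen, and was found in the other 4, H2-K1, H2-D1, H2-Q6 and H2-M3, as in 7.56% of all windows. One or the other form was in 10.4% of all windows. That each of the 7 member windows holds one of them follows from adding the shorter form for these sequences and is no finding. The first base of this element lay at position -90 from the start in H2-K1, -101 in H2-M3, -124 in H2-T23, -139 in B2m, -150 in H2-D1, -152 in H2-Q6 and -191 in H2-T22. RefSeq lists the H2-K1 gene, on the minus strand, from 34000619 down to 33996012, so its stretch lies inside the gene. The H2-K1 positions thus depend on the start used.

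The CCAAT box, searched as CCAAT and ATTGG, was in 7 of 7 member windows and in 37.9% of all windows. TGACG or its reverse CGTCA was in 5 of 7, all but H2-Q6 and H2-T23, and in 21.0% of all. The kappa B-like motif GGGNNNNCCC was in the windows of H2-K1, H2-D1 and H2-Q6 and in 11.6% of all, and in these 3 stretches it lay just before the interferon element within the same run of letters. TTCNNNGAA, the letters of a gamma-activated site, was in H2-M3 alone of the 7, outside the stretch shown, and in 8.47% of all windows. A match of letters is a description and does not show that a factor binds there. The map of motif positions shows the longer form in 3 windows, the shorter, added form in 4, and a CCAAT box in each.

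**Figure D1:**
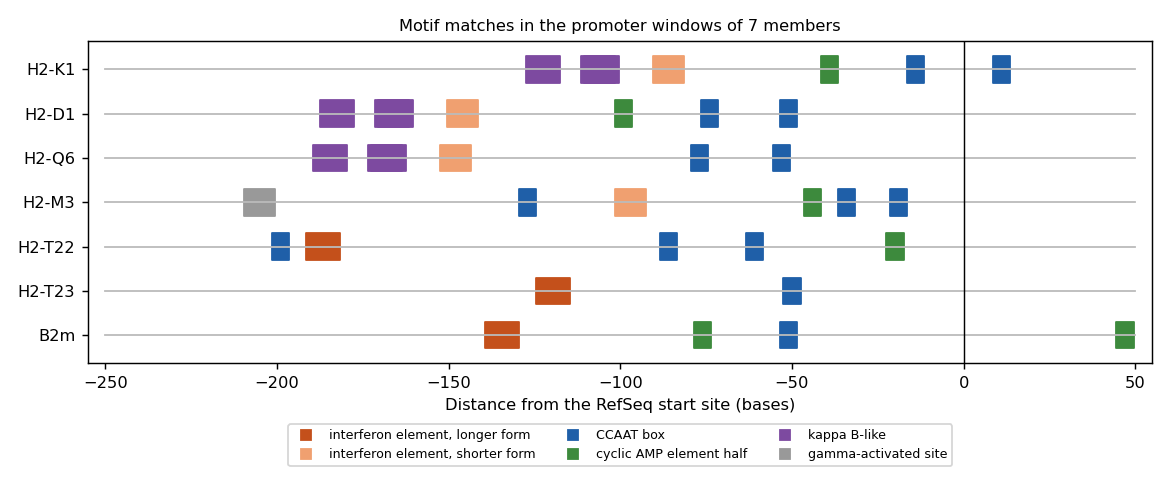
Motif matches in the promoter windows of 7 members. The horizontal axis is the distance in bases from the RefSeq start site (vertical line at 0), each row is a gene, and colored blocks are motif matches on either strand. The longer interferon element (dark orange) is in 3 rows and the shorter form, added after the sequences had been seen (light orange), in the other 4.

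On the arrays, the classical gene H2-K1, whose product is a main peptide-presenting molecule of the mouse, was measured by 3 probes. In what follows, 5 signals in a row are those of 0, 3, 7, 11 and 21 DAI. The brightest probe had 1962, 2011, 1877, 6971 and 2441. The array of 11 DAI stood alone, with a log2 ratio of 1.83 to sham (3.55-fold), and the other 4 arrays were close to each other. The second probe had 710, 890, 668, 3000 and 916, and the third had 721, 894, 832, 2587 and 1093. Their log2 ratios at 11 DAI were 2.08 and 1.84, so the probes of H2-K1 differed by 0.25 at most.

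H2-D1, the other classical gene, was measured by 4 probes. Its brightest probe had signals of 10032, 10493, 12910, 19537 and 12257. The array of 11 DAI was again the highest, but the log2 ratio of 0.96 fell short of 2-fold, and the next highest array was only 0.60 lower on the log2 scale. The second probe gave 8029, 7603, 9282, 13496 and 9904, with a log2 ratio of 0.75 at 11 DAI. The third gave 5189, 5685, 6567, 13344 and 7046, with 1.36, and the fourth gave 1168, 1154, 1381, 3209 and 1837, with 1.46. The 2 dimmer probes therefore passed 2-fold and the 2 brighter ones did not. The range of 0.71 among them is larger than the median range of 0.31 over 2273 genes with more than 1 probe above 64 on all arrays, and within the 95th percentile of 1.04.

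H2-M3 encodes a non-classical molecule that presents N-formylated peptides of bacteria and mitochondria, and 1 probe measured it. Its signals were 459, 671, 515, 2540 and 804. The value at 11 DAI was 5.54-fold that of sham, and 21 DAI was the next highest. H2-M3 had the highest ratio of the members measured above 64 on all arrays, and 34 of 8304 genes had a higher ratio at 11 DAI.

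H2-T23 encodes Qa-1, which holds leader peptides of classical heavy chains and is read by the CD94/NKG2 receptors of NK cells. Its brightest probe had signals of 4015, 4951, 4488, 16730 and 5704. This is a log2 ratio of 2.06 (4.17-fold) at 11 DAI, where the array again stood apart from the other 4. The second probe gave 3940, 4357, 4106, 14012 and 4862, and the third 2148, 1762, 2686, 6458 and 2116. The log2 ratios at 11 DAI were 1.83 and 1.59, and at 3 DAI the probes pointed both ways, at 0.30, 0.15 and -0.29.

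H2-Q6 belongs to the Q region, whose products include the Qa-2 molecules, and was measured by 2 probes. The brighter had signals of 1803, 1765, 1790, 7186 and 2234. The first 3 arrays were nearly level, and 11 DAI was 3.99-fold sham. The other probe gave 956, 1151, 1010, 4278 and 1457, with a log2 ratio of 2.16 at 11 DAI against 1.99 for the brighter. Genes of the Q region are much alike, the probe sequences were not analysed here, and how far each probe reads its neighbors was not tested.

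H2-T10 and H2-T22 are closely related genes of the T region whose products are known as ligands of some gamma delta T cells, and RefSeq lists H2-T10 as a transcribed pseudogene in the reference strain. The brightest H2-T10 probe had signals of 104, 104, 69.9, 566 and 104. The sham, 3 DAI and 21 DAI values were equal to 3 digits, 7 DAI was the lowest, and 11 DAI was 5.45-fold sham. A second H2-T10 probe gave 48.3, 107, 74.9, 396 and 75.8, so that its ratio at 11 DAI is a bound of at least 2.63 on the log2 scale, and the third was under 64 on all 5 arrays. The single H2-T22 probe gave 30.4, 74.6, 34.9, 298 and 63.5. It was above 64 only at 3 and 11 DAI, and at 11 DAI it was at least 4.65-fold sham. Because these 2 genes are so alike in sequence, their probes may read the same RNA, and the counts at 11 DAI over sham are also given with the pair taken as 1 gene.

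B2m had very bright probes. The brightest gave signals of 27768, 27642, 27557, 38049 and 30673, with a log2 ratio of 0.45 at 11 DAI. The second gave 24689, 26995, 26213, 40918 and 27439, with 0.73, and the third was under 64 on all 5 arrays. The 11 DAI array was the highest for both measured probes, but by less than 2-fold. These 2 signals were 75.0% and 80.6% of the brightest signal on the array at 11 DAI, and 52.6% and 46.8% at 0 DAI. Whether so bright a probe understates a ratio was not tested.

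**Figure D2:**
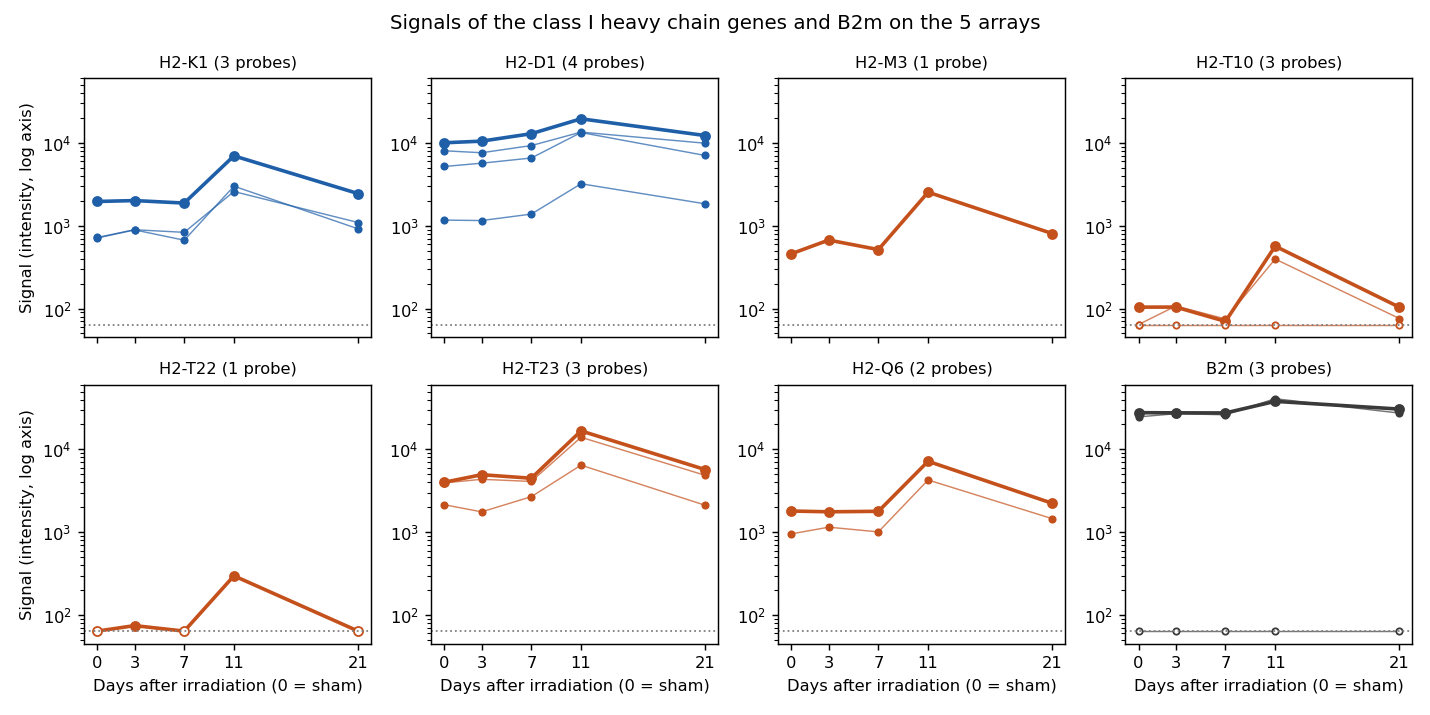
Signals of the 8 genes on the 5 arrays. Each panel is a gene, the horizontal axis is days after irradiation (0 is sham), the vertical axis is the signal (intensity, log axis), and each line is a probe, the thick line being the brightest. Blue marks classical, orange non-classical heavy chains and black B2m, open circles are signals under 64 drawn at 64 (dotted line), and each measured probe is highest at 11 DAI.

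Over all members, 18 of the 20 probes were above 64 on at least 1 array and 16 on all 5. For 18 of these 18 probes 11 DAI was the highest of the 5 arrays, and for 13 of them 21 DAI was the next highest. The array of 0 DAI was the lowest for 10 of the 18, and the rest had 3 or 7 DAI lowest. Thus the members shared the high array but not the low one. Among 8879 genes above 64 on any array, 26.4% peaked on that of 11 DAI.

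At 11 DAI, 6 of 8 members were at least 2-fold higher than sham, namely all but H2-D1 and B2m, against 6.0% of 8304 genes. None of the 8 was lower, against 5.21% of genes. Counted by probe, 14 of 18 were higher, against 5.63% of 12454 probes. With H2-T10 and H2-T22 taken as 1 gene, by leaving out the H2-T22 probe, the counts were 5 of 7 members and 13 of 17 probes. The median log2 ratio of the 8 members was 2.03, against 0.12 for all genes. Since the members were chosen with earlier results of these data known, these contrasts are not independent of the choice. For scale, the size of the log2 ratio at 11 DAI had a median of 0.38 and a 95th percentile of 1.31 over 7530 genes above 64 on both arrays. The 6 genes had ratios that only 34 to 83 of the 8304 genes exceeded, H2-D1 was exceeded by 543 and B2m by 2134.

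At 3 DAI, 0 of 8 members were higher, against 5.56% of 8471 genes, and 0 were lower, against 4.19%. The member log2 ratios ran from -0.03 in H2-Q6 to 0.55 in H2-M3. At 7 DAI, where H2-T22 had no ratio, 0 of 7 were higher, against 4.09% of 8256 genes, and 0 were lower, against 3.40%. H2-T10 was the lowest there at -0.57 and H2-D1 the highest at 0.36. The measured ratios at these times were thus all under 2-fold. H2-T22 is not among them, since its signals of 30.4 at sham and 74.6 at 3 DAI give only a lower bound of 0.22, and H2-T10 lay near 64.

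The step from 7 to 11 DAI does not use the sham array. It was at least 2-fold upward in the same 6 of 8 members, against 5.75% of 8347 genes, at log2 ratios from 1.89 in H2-K1 and 1.90 in H2-T23 to 2.30 in H2-M3 and 3.02 in H2-T10. H2-D1 was at 0.60 and B2m at 0.47. From 11 to 21 DAI the same 6 of 8 members were at least 2-fold lower, against 5.83% of 8338 genes. A stricter reading asks that 11 DAI be at least 2-fold above each of the other 4 arrays, which was so for the same 6 of 8 members and for 110 of 8879 genes, or 1.24%. No member was so placed on the arrays of 0, 3, 7 or 21 DAI, against 0.687%, 1.78%, 0.327% and 0.0338% of genes. These shares are too small for 8 genes to differ from them by having none.

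At 21 DAI, 0 of 7 members were higher than sham, against 2.56% of 8282 genes, and 0 were lower, against 3.69%. Of the 17 member probes with a ratio at 21 DAI, 15 had one above 0 and 0 reached 2-fold, while the median of all genes was 0.17 on the log2 scale. H2-M3 was the highest member at 0.81, a ratio that 484 genes exceeded, followed by H2-T23 at 0.51 and H2-K1 at 0.32. Taken on the linear scale, the excess over sham that remained at 21 DAI was 16.6% of that at 11 DAI for the H2-M3 probe. Over the probes of a gene it ran from 9.01% to 19.9% for H2-K1, 22.8% to 34.3% for H2-D1, -0.76% to 13.3% for H2-T23, 8.01% to 15.1% for H2-Q6 and 16.9% to 28.3% for B2m. Probes of 1 gene thus differed too much to order most of these genes. For the brightest H2-T10 probe the signal was back at the sham value.

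**Figure D3:**
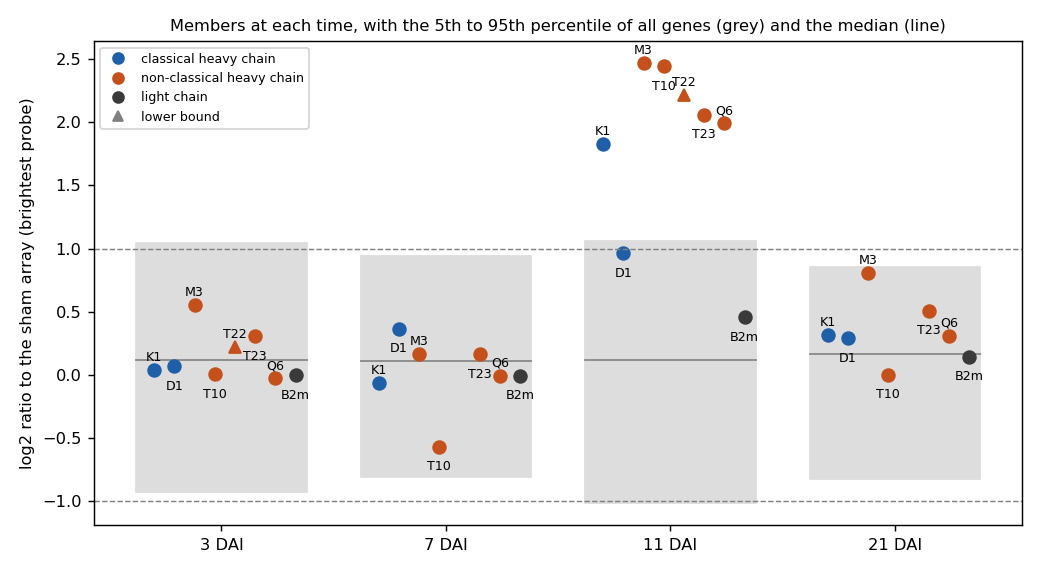
Log2 ratios of the 8 members to the sham array at 3, 7, 11 and 21 DAI (brightest probe). Circles are measured ratios, triangles lower bounds, the grey band is the 5th to 95th percentile of all genes with a ratio, the grey line their median, and dashed lines mark 2-fold. At 11 DAI 6 members lie between 1.83 and 2.47, above the band, while H2-D1 at 0.96 and B2m at 0.45 lie inside it.

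Classical and non-classical heavy chains were then compared. At 11 DAI 1 of 2 classical genes and 5 of 5 non-classical genes passed 2-fold upward, against 6.0% of 8304 genes. The median log2 ratio was 1.40 and at least 2.22, a difference of at least 0.82. The second median is the bound of H2-T22, so both values depend on the floor of 64. Without H2-T22 4 of 4 non-classical genes passed, their median was 2.25 and the difference 0.86, and without H2-T10 and H2-T22 it was 2.06 and 0.66. Each of the 5 non-classical genes, from 1.99 in H2-Q6 to 2.47 in H2-M3, had a higher ratio than H2-K1 at 1.83, the higher of the classical pair. By probe the classes overlapped, with the 7 classical probes between 0.75 and 2.08 and the 9 non-classical probes between 1.59 and 2.63. The distance within the classical pair, 0.87 between H2-K1 and H2-D1, was as large as that between the classes. At the other times the medians differed by 0.17, -0.08 and 0.11, non-classical minus classical, at 3, 7 and 21 DAI, where the first again rests on the bound of H2-T22. With 1 array a time and 2 classical genes the difference at 11 DAI could not be tested.

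B2m pairs with every heavy chain named here, and its log2 ratio at 11 DAI was 0.45 beside a heavy chain median of 2.06. At 3, 7 and 21 DAI the heavy chain median lay 0.07, 0.09 and 0.17 above B2m. The chains thus had unequal ratios on the 11 DAI array, where each of the 16 measured heavy chain probes had a higher ratio than both B2m probes. The lowest of them, an H2-D1 probe at 0.75, was close to the higher B2m probe at 0.73. Whether the very bright B2m probes understate a ratio was not tested.

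The other genes of the class I pathway were taken from lists of known function. Of 25 other class I and class I-like heavy chain genes, 21 had a probe and 8 a ratio at 11 DAI. Of these 8, 5 passed 2-fold upward and 2 downward, against 6.0% and 5.21% of all genes, and the median was 1.15. This count and median include H2-T24 and H2-Q2, which were under 64 at sham. They had a ratio only through their 11 DAI signal, so they could only count upward. Cd1d1, which was not called, was at 0.30. The same shares of all genes are the background for the lists that follow at 11 DAI. H2-Q7, which encodes Qa-2, had signals of 653, 443, 715, 2793 and 965, a log2 ratio of 2.10 at 11 DAI. H2-Q5 had 12823, 14026, 13606, 29543 and 13630, a ratio of 1.20. The 2 probes of H2-Q8 disagreed, with 1.10 for the brighter and 3.39 for the other. H2-T24 had 37.9, 51.4, 49.8, 181 and 45.4, above 64 on the 11 DAI array alone. H2-Q7 and H2-T24 were named for the size of this ratio, so their high array is given by the choice. Fcgrt, the heavy chain of the neonatal Fc receptor, which also pairs with beta-2-microglobulin, went the other way, with 1092, 2855, 763, 415 and 793 and a ratio of -1.40. The fifth higher gene was H2-Q2, at a bound of at least 1.24, and the other lower one was Hfe, at -1.24, both named after their values had been seen.

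Among these other lists, peptide supply and loading had the largest share of genes called upward. Of 11 genes with a ratio at 11 DAI, 8 were called upward and 0 downward, and the median was 1.44. Tap1, a subunit of the peptide transporter, had signals of 247, 415, 262, 1200 and 313, a log2 ratio of 2.28. It was named for the size of this ratio, so its high array is given by the choice. Psmb8 and Psmb10, catalytic subunits of the immunoproteasome, were at 1.54 and 1.70. Psme1, a subunit of a proteasome activator, was at 0.91, and its other probe passed 2-fold at 1.46. Pdia3, a disulfide isomerase of the loading complex, was at 0.74. Of these 11 genes, 3 were already at least 2-fold higher at 3 DAI, against 5.56% of all genes. For 1 of them, Tapbp, the other probe gave only a bound of at least 0.21. No member was called at 3 DAI, though H2-T22 had only a lower bound there. The list median at 3 DAI was 0.79 and that of the 8 members 0.05. Psmb8 was still at 1.05 at 21 DAI.

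Of 16 class I transcription regulators with a ratio at 11 DAI, 5 were called upward and 0 downward, and the median was 0.10. Nlrc5, the transactivator of class I promoters, had signals of 92.9, 218, 141, 1095 and 137, a log2 ratio of 3.56. Irf7, Stat2 and Irf1, factors of the interferon response, were at 2.98, 1.79 and 1.07. Nlrc5, Irf7 and Stat2 were named for the size of this ratio, so their high array is given by the choice. The probes of Irf1 ran from 0.83 to 1.27, so its call depends on the probe. Irf2 at -0.15, Irf3 at 0.33 and Nfyc, a subunit of NF-Y, at 0.11 were within 2-fold.

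Interferon genes themselves had little or no signal. Ifng, which encodes interferon gamma and is named after its values had been seen, had signals of 48.0, 71.8, -2.65, 34.2 and -1.58, and was above 64 only at 3 DAI. Ifnb1, Ifna1, Ifna2 and Ifna4, genes of type I interferons, were under 64 on all arrays. Of 8 genes of the interferon list with a ratio at 11 DAI, 0 were higher and 1, the cytokine gene Tnf at -2.22, was lower. The receptor genes Ifngr1 and Ifngr2 were at -0.13 and -0.45 at 11 DAI.

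Of 14 genes for receptors and co-receptors of class I, 12 had a probe and 5 a ratio at 11 DAI. Cd8a, Klrc1 and Klrc2 were among those under 64 throughout. Of the 5, 2 were higher. Klra3, a Ly49 receptor gene of NK cells, was at 1.37, with its other probe at 0.96. Cd160, also a receptor gene of NK and T cells, was at a bound of at least 1.96, since it was under 64 at sham. Klrd1, which encodes the CD94 chain that reads the product of H2-T23, was at 0.87. Cd8b1 was at 0.35, with probes from -0.63 to 0.35. MHC class II genes, which present peptides taken up from outside the cell, served as a comparison. At 11 DAI 0 of 9 were called, with a median of 0.13, and H2-Eb1 was at 0.62 and Cd74, the invariant chain, at 0.54. At 7 DAI 5 of the 9 were lower, against 3.40% of all genes, with a median of -1.02, and Cd74 was at -1.58, at a time when the 7 class I members with a ratio lay between -0.57 and 0.36.

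**Figure D4:**
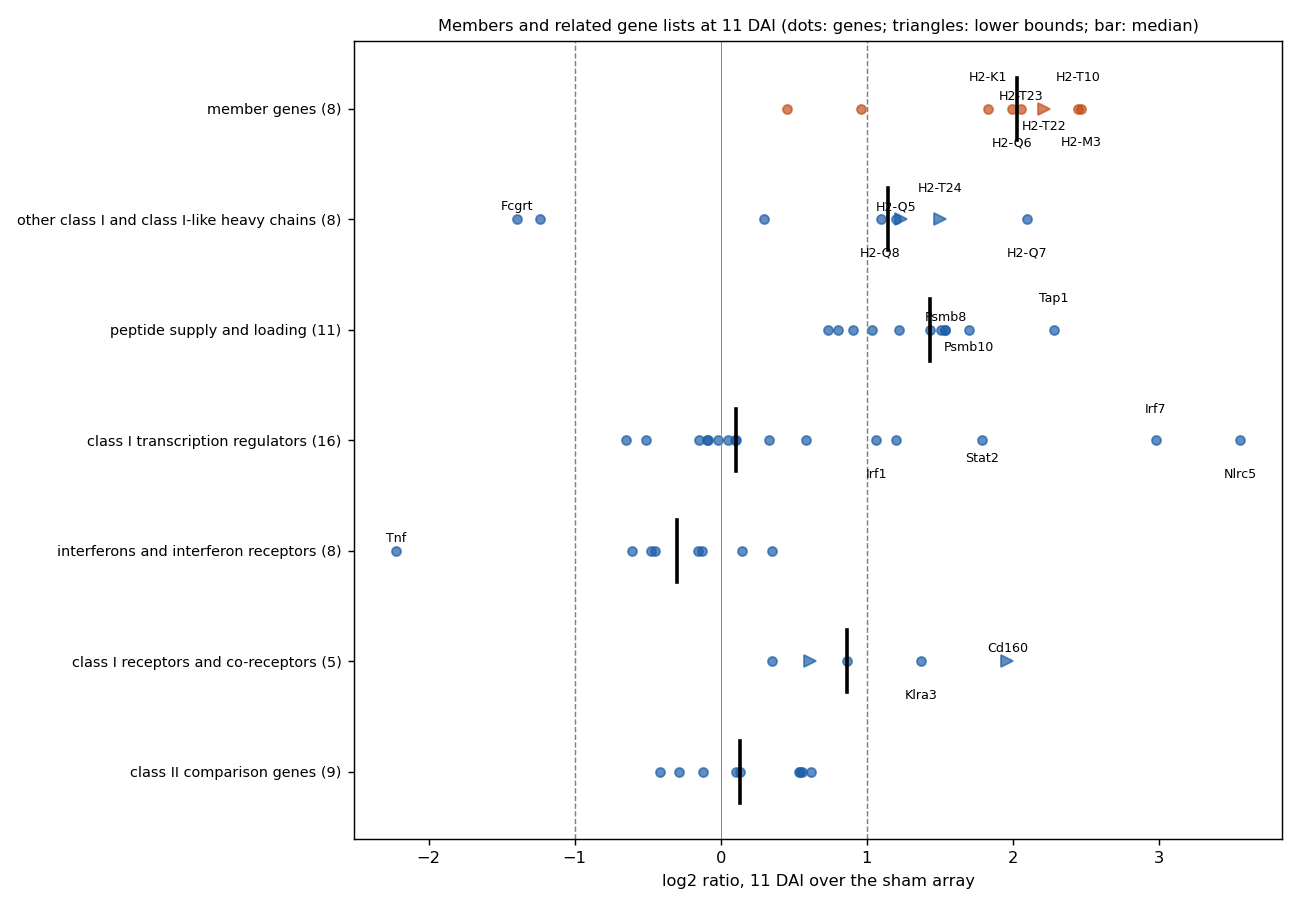
Log2 ratios at 11 DAI over sham for the members (orange) and 6 lists of related genes (blue). The horizontal axis is the log2 ratio, each circle is a gene, each triangle a lower bound, the black bar is the list's median, the number after a list's name is how many genes had a ratio, and dashed lines mark 2-fold. The members (median 2.03), peptide supply and loading (1.44) and other class I genes (1.15) lie to the right by their medians, while class II genes (0.13) lie around 0. The median of the other class I genes includes the bounds of H2-Q2 and H2-T24, which could only point upward.

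Genes with a time course most like the heavy chains were sought among 7122 genes above 64 on all arrays. The reference was the mean log2 profile of the 6 heavy chain genes above 64 on all arrays, which was 0.15, 0.01, 1.96 and 0.37 at 3, 7, 11 and 21 DAI. Likeness was measured by the root mean square distance of the 4 ratios, over 5 arrays. Dtx3l, a ubiquitin ligase gene, was nearest at 0.11, with signals of 1224, 1446, 1379, 4401 and 1577. Stat2 followed at 0.23, Oas3, which encodes an oligoadenylate synthetase, at 0.24, and Asb13 at 0.26. The next were Tapbpl, a peptide editor of class I molecules, at 0.27, Helz2 at 0.27, the immunoproteasome subunit Psmb9 at 0.31, Trafd1 at 0.32, and Pml and Rnf114 at 0.33. A peak at 11 DAI in these genes is given by the choice. The 5 genes nearest to B2m, namely Tmem223, Fem1b, Capn10, Cdc6 and Nfatc2ip at distances from 0.03 to 0.06, were other genes than those nearest to the heavy chains. Low ratios like those of B2m are common, so small distances there say little.

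**Figure D5:**
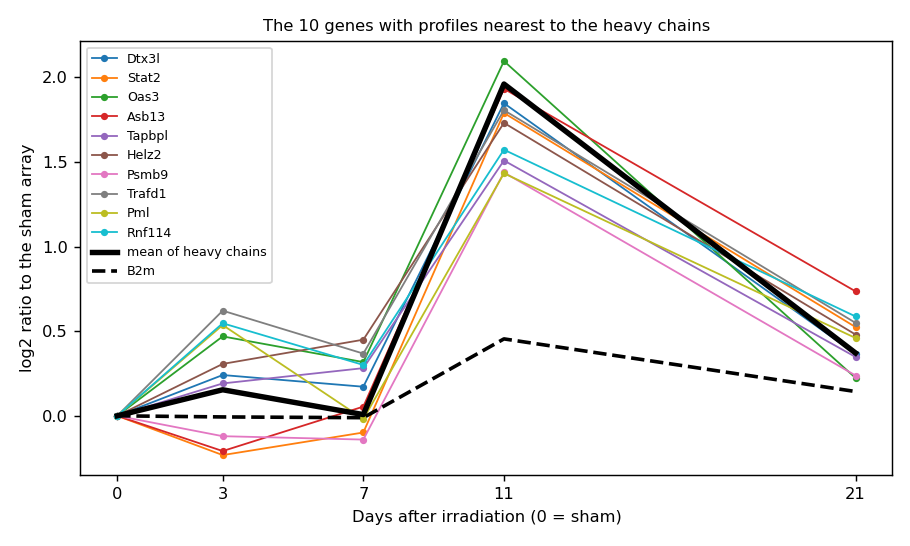
Log2 ratios to the sham array, by days after irradiation, of the 10 genes nearest to the heavy chain profile (thin colored lines), of that profile (thick black line, mean of 6 genes) and of B2m (dashed line). The heavy chain mean is 1.96 at 11 DAI and 0.37 at 21 DAI, and B2m is 0.45 and 0.14.

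In a mixed tissue, a change in the share of a cell type and a change of RNA per cell cannot be told apart, so cell type markers are given beside the members. Neutrophil markers, and erythroid ones except Epb42, were above 64 on every array. The summed signal of 10 neutrophil markers was 320405 at 0 DAI and 294175 at 11 DAI, within a range of 287760 to 332039, and 0 of 10 were called at 11 DAI. That of 8 erythroid markers was 76610 at 11 DAI, within a range of 61764 to 98256, and 0 of 7 with a ratio were called. Without Hba-a1, its brightest gene, the erythroid sum was 43494, 19940, 53964, 32059 and 12418, and thus less even. Of the 10 neutrophil markers, 7 were at 50% or more of the brightest signal on the sham array, so their sum says little of smaller changes. Of the dimmer ones, Mmp8 had 1309, 387, 2618, 675 and 1605, and Cxcr2 had 2250, 1429, 4819, 2365 and 3534. Neither was highest at 11 DAI, and both were named after their values had been seen.

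The 7 B cell markers summed to 15305, 2615, 7516, 20926 and 15896, so 11 DAI was their highest array too. At 11 DAI 2 of 6 with a ratio were higher and the median log2 ratio was 0.40. Pax5, a defining B cell gene, was under 64 on all arrays. The 8 NK cell markers summed to 24259, 15107, 10313, 19405 and 18031, with Klrb1c and Gzmb under 64 on all arrays. At 11 DAI 2 of 6 with a ratio were higher and the median log2 ratio was 0.74. Ncr1 and Eomes, the 2 higher ones, and Klrk1 were under 64 at sham, so their ratios are bounds that could only point upward. Those above 64 on both arrays, Klrd1 at 0.87, Nkg7 at 0.40 and Prf1 at -0.75, were within 2-fold. The 9 T cell markers summed to 10054, 9973, 13961, 6362 and 10521, lowest at 11 DAI, with Cd4, Cd8a, Trat1 and Cd5 under 64 throughout. At 11 DAI 1 of 5 with a ratio was lower and the median log2 ratio was 0.10. The lower one was Cd3d, with 5949, 3044, 8263, 1129 and 5052 and a log2 ratio of -2.40, and the low sum at 11 DAI rests on it. Lat was at 0.81, Cd8b1 at 0.35, Cd3g at 0.10 and Cd3e at -0.05. These sums lean on a few bright genes. Without Prf1, its brightest gene, the NK sum was 6103, 11557, 4712, 8634 and 8156, second highest at 11 DAI. Klrd1, an NK gene that is also on the receptor list, was highest at 11 DAI with 1106, beside 981 at 3 DAI. Ncr1 and Eomes were also highest at 11 DAI, but Prf1 was highest at 0 DAI, and Nkg7 and Klrk1 at 3 DAI.

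The 10 macrophage and dendritic cell markers summed to 4858, 9720, 5840, 3472 and 5499, with 2 of 8 higher and 1 lower at 11 DAI and Itgax and Flt3 under 64 throughout. C1qb, 1 of the 2 higher, was under 64 at sham, so its ratio is a bound that could only point upward. The 5 megakaryocyte markers summed to 2392, 9225, 514, 5385 and 2643, with 3 of 5 higher at 11 DAI. The 9 stromal markers summed to 1575, 12374, 1527, 1388 and 764, with 0 of 4 called and Lepr under 64 throughout. The 6 plasma cell markers summed to between 9684 and 13147, with 11 DAI the highest by a narrow margin over 21 DAI at 13110, and 0 of 3 were called at 11 DAI, with Sdc1, Prdm1 and Tnfrsf17 under 64 throughout. The part of cell type shares in the class I values was not tested.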

How the data were processed

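The authors hybridized biotin-labelled cRNA, made from an oligo(dT) primer, to Illumina bead arrays and read it with GenomeStudio 2010.2, per the labels. The deposited intensity values are background-subtracted, on a linear scale, and scaled by average normalization (mean 536 on each of 5 arrays). They were used without further scaling. The 10 columns of a non-normalized table match no label and were not used. Of 45281 probes, 34885 had 1 gene symbol in the platform annotation, 18 had several and 10378 were not listed there. Signals were floored at 64, and the probe with the highest mean signal stood for a gene. With 1 array a group, no test, SD or p-value was computed. The computation was checked on simulated data. Other scalings, floors, probe rules, size rules and a different baseline were tried.

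The members and the gene lists were chosen with earlier results of these data known. Named are all member probes, of each list the 4 brightest genes and the 3 with the largest ratio at 11 DAI, and the 10 and 5 nearest profiles. Some other list genes were named after their values had been seen. The analysis ran under Python 3.11.15 with numpy 2.4.6, pandas 2.3.3 and matplotlib 3.10.9. Member identifiers matched the RefSeq table for 8 of 8 genes. BALB/c carries another MHC haplotype than the reference strain, and the effect of this on probe signals was not tested.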

Additional observations from a re-analysis of the deposited data

How the results depend on the processing

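The count of members at least 2-fold higher at 11 DAI stayed within 1.5 times of 6 under every alternative tried. Over these alternatives the log2 ratio at 11 DAI ran from 1.71 to 2.08 for H2-K1, 1.96 to 2.47 for H2-M3, 1.69 to 2.64 for H2-T10, 1.74 to 2.06 for H2-T23, 1.87 to 2.16 for H2-Q6 and 0.33 to 0.73 for B2m. For H2-T22 it ran from 1.57 to 3.22 and could not be had from probes above 64 on all arrays. H2-D1, from 0.72 to 1.13, passed the size rule with the mean over probes (1.13) or a 1.5-fold rule (0.96). The non-classical minus classical difference ran from 0.55 to 1.05, and that of heavy chains over B2m was 1.43 or more. With a floor of 32, 1 member was higher at 3 DAI, H2-T22 at 1.22. With the other 3 irradiated arrays as baseline, which include 11 DAI, 2 members were lower at 7 DAI, H2-M3 at -1.11 and H2-T10 at -1.39. With a 1.5-fold rule 1 member was higher at 21 DAI, H2-M3 at 0.81. The second brightest probe as an alternative was chosen after seeing the data.

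Counts over all genes moved more. Each pair below gives higher, then lower genes, in the order of times. As reported, the pairs were 471 and 355, 338 and 281, 498 and 433, and 212 and 306. Under a 3-fold rule they were 142 and 125, 50 and 97, 115 and 142, and 22 and 127. Under a 1.5-fold rule they were 1395 and 907, 1256 and 681, 1512 and 1036, and 1175 and 664. The mean over probes gave 282 and 212 for 3 DAI, 165 and 181 for 7 DAI, 92 and 196 for 21 DAI, and 296 higher genes for 11 DAI. Scaling to a common median gave 225 higher genes at 7 DAI and 126 at 21 DAI. A floor of 32 gave 715 higher at 3 DAI and 357 at 21 DAI, probes above 64 on all arrays gave 281 at 3 DAI, and at 21 DAI a pseudocount of 50 gave 126 and the other baseline 82. The size rules change these counts by construction, and for the rest the cause was not tested. No paired analysis was possible because each group has 1 array, and for the same reason no replicate could be left out. Signals near 64, as for H2-T10 and H2-T22 outside 11 DAI, limit the ratios to bounds or to large changes.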
